A study of Mus musculus with 8 samples.

Results

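The nuclear-encoded subunits of the oxidative phosphorylation machinery were examined in mouse skeletal myogenic progenitors. Members were taken by symbol alone, as every listed gene of the Nduf (A, B, C, S and V), Sdh, Uqcr, Cox4 to Cox8 and Atp5 families, which gave 85 of the 24980 gene symbols in the table. They comprised 38 genes of complex I, 4 of complex II, 8 of complex III, 18 of complex IV and 17 of complex V. A few of these symbols stand for something other than an established subunit. Ndufb4c is annotated as a processed pseudogene, Atp5s encodes a factor associated with the ATP synthase, and Cox7a2l encodes a protein of respiratory supercomplexes. The choice by symbol also left out Cyc1, for cytochrome c1 of complex III, which is given with the electron carriers.

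The libraries came from 4 groups with 2 biological replicates each. TF cells were freshly isolated, teratoma-derived progenitors, sorted as EGFP+ CD31- CD45- α7-integrin+ VCAM-1+ cells from teratomas that E14 embryonic stem cells carrying EGFP had formed in irradiated, cardiotoxin-injured tibialis anterior muscle of NSG-mdx4Cv mice. TE cells were the same kind of cells after culture on gelatin in myogenic expansion medium to passage 8. SF cells were endogenous satellite cells, freshly isolated, and SE cells were satellite cells expanded to passage 8. Both teratoma groups therefore descend from 1 embryonic stem cell line and both satellite groups from adult muscle, so that origin, donor strain and host cannot be told apart. Reads came from total RNA. A library held between 11930961 and 21146632 estimated counts, of which between 7.99% and 21.3% fell on Rn45s, the precursor of ribosomal RNA.

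Oxidative phosphorylation moves electrons from NADH and succinate through complexes I to IV to oxygen and uses the proton gradient this builds to make ATP at complex V. Nearly all subunits are encoded in the nucleus, while a small core set is encoded in mitochondrial DNA. Quiescent satellite cells are known for few mitochondria and low respiration, and activation and differentiation bring mitochondrial biogenesis. Several complex IV subunits exist as a broadly expressed isoform and an isoform typical of heart and skeletal muscle, among them Cox6a1 and Cox6a2, Cox7a2 and Cox7a1, and Cox8a and Cox8b.

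The subunits as a group were lowest in SF, intermediate in TF and highest in both expanded groups. Levels are given in CPM, a count divided by its library total in units of 1000000, after scaling by the trimmed mean of M values. Summed over all members, the level was 1892 and 2414 CPM in the SF libraries, 4260 and 4227 CPM in TF, 6394 and 6441 CPM in TE, and 6575 and 7214 CPM in SE. The SF libraries lay below the others, and TF lay between SF and both expanded groups without overlap. The sum was 3.20 times as high in SE as in SF and 1.51 times as high in TE as in TF. It was 1.97 times as high in TF as in SF, whereas TE stood at 0.931 of SE. As a share of the counts without Rn45s, which does not depend on the scaling, the members took 0.233% and 0.270% in SF, 0.483% and 0.473% in TF, 0.813% and 0.828% in TE, and 0.806% and 0.892% in SE. In bulk RNA a lower level can stand for fewer cells of a type or for less of the transcript per cell, and these cannot be told apart.

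**Figure D1:**
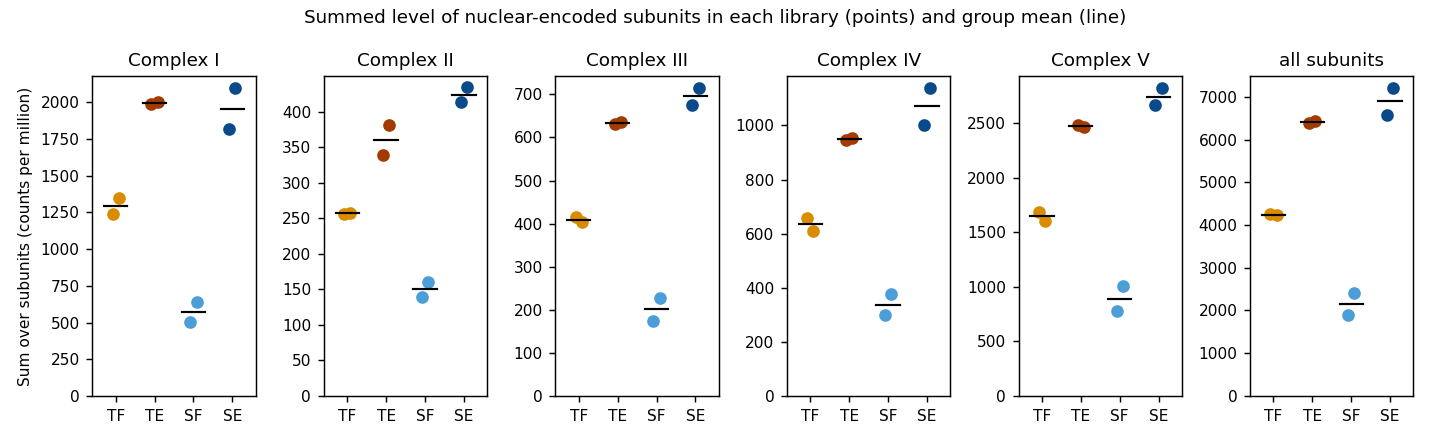
Summed level in CPM of the nuclear-encoded subunits of each complex, and of all of them, in each of the 8 libraries. Points are libraries, short lines are group means and each axis starts at 0. In every panel the SF libraries are lowest and the TF libraries lie between SF and the expanded groups.

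The order held within each complex. For complex I, with the NADH dehydrogenase subunits, the sums were 505.4 and 640.3 CPM in SF, 1239 and 1351 CPM in TF, 1992 and 2002 CPM in TE, and 1816 and 2097 CPM in SE. Complex II, which is succinate dehydrogenase and has no subunit encoded in mitochondrial DNA, ran from 139.4 and 160.5 CPM in SF through 256.5 and 258 CPM in TF to 339.5 and 382.1 CPM in TE and 413.7 and 435.2 CPM in SE. The ratio of SE to SF was 3.42 for complex I, 2.83 for complex II, 3.45 for complex III, 3.17 for complex IV and 3.08 for complex V. The ratio of TE to TF lay between 1.4 and 1.54 over the 5 complexes.

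Of the 85 members, 83 passed the filter on low counts and were tested. Cox8c was listed at 0 in all 8 libraries and Cox7b2 reached at most 0.581 CPM, so neither was tested. A gene was called when the adjusted p of edgeR's quasi-likelihood test was below 0.05 (Benjamini-Hochberg, over 17582 genes) and the log2 fold change lay beyond 0.32 in either direction. Both SF libraries lay below all other libraries for 70 of the 83 tested members, against 21% of all genes tested. SF lay below TF, and TF below both expanded groups, for 55 of the 83, against 9% of all genes tested.

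After expansion of satellite cells nearly the whole set was higher. In SE versus SF, 76 of the 83 tested members were called higher, where 20.9% of all genes tested were called higher. By edgeR 0 members were called lower, where 19.8% of all genes were, and 0 were lower at an unadjusted p below 0.05 or by DESeq2. The median log2 fold change was 1.77 over the tested members and -0.23 over all genes tested. Complex I had 34 of 38 members called higher, complex II 4 of 4, complex III 8 of 8, complex IV 14 of 16 and complex V 16 of 17. The members not called were Ndufa1, Ndufa4l2, Ndufb2, Ndufb4, Cox4i2, Cox7a1 and Atp5s. When any 1 library was left out, between 70 and 76 members were called higher.

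In complex I, Ndufs1, the large iron-sulfur subunit, was at 23.3 and 26.2 CPM in SF and 121.5 and 133 CPM in SE. Its log2 fold change was 2.36 ± 0.20 (SE of the fit, n = 2 per group, adjusted p = 2.39e-05 by edgeR). Sdhc, which anchors succinate dehydrogenase in the membrane, rose from 16.9 and 12.1 CPM to 75.7 and 78.8 CPM, a log2 fold change of 2.42 ± 0.25 (adjusted p = 6.89e-05 by edgeR). Uqcrq, the complex III subunit also known as subunit VII, had the smallest adjusted p of the set. It rose from 20.3 and 17.7 CPM in SF to 119.6 and 135.2 CPM in SE, a log2 fold change of 2.75 ± 0.19 (adjusted p = 7.65e-06 by edgeR). In none of these genes did the SF and SE libraries overlap.

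In complex IV, Cox7b rose from 15.3 and 17.8 CPM in SF to 88.2 and 89.9 CPM in SE, a log2 fold change of 2.43 ± 0.20 (adjusted p = 1.99e-05 by edgeR). In complex V, Atp5o, a subunit of the stalk that joins the catalytic head to the membrane part, rose from 13.5 and 22.5 CPM to 129 and 133.6 CPM, a log2 fold change of 2.87 ± 0.25 (adjusted p = 2.87e-05 by edgeR). The α and β subunits of the catalytic head had the highest CPM of the set, a measure not divided by transcript length. Atp5a1 was at 200.1 and 256.6 CPM in SF and 619.2 and 707.9 CPM in SE, and Atp5b at 217.9 and 282.9 CPM in SF and 701.8 and 721.4 CPM in SE. Their log2 fold changes were 1.54 ± 0.20 and 1.51 ± 0.19 (adjusted p = 0.000254 and 0.000265 by edgeR), below the median of the set.

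After expansion of teratoma-derived cells fewer members were called higher. In TE versus TF, 23 of the 83 tested members were called higher and 1 lower, where 9.86% of all genes tested were called higher and 16.2% lower. The median log2 fold change was 0.60 over the tested members and -0.18 over all genes. All 23 members called higher were also among the 76 called higher in SE versus SF, of which they made 30.3%. Over all genes, 64.3% of those higher in TE versus TF were also higher in SE versus SF. TF libraries lay below TE libraries without overlap for 67 of the 83, against 31.8% of all genes. The count depended on single libraries. It fell without either TE or either TF library, and so did the count over all genes tested. The share of members called then came closer to that of all genes. Both counts rose without either SF library, which take no part in the comparison but share the estimate of spread. The median of the members moved only between 0.59 and 0.67, while that of all genes ran from -0.18 to 0.

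Uqcrq again had the smallest adjusted p of the set. It was at 62.9 and 61.3 CPM in TF and 206 and 189.2 CPM in TE, a log2 fold change of 1.67 ± 0.18 (adjusted p = 0.00016 by edgeR). Atp5o rose from 52.9 and 55 CPM to 121.6 and 122.9 CPM, a log2 fold change of 1.18 ± 0.23 (adjusted p = 0.00525 by edgeR). Cox5b, Atp5b, Sdhb and Sdhd were also called higher. The calls of Cox5b, Atp5b and Sdhb were lost when any 1 of the 4 libraries compared was left out (adjusted p from 0.0568 to 0.0923, from 0.145 to 0.184 and from 0.117 to 0.232 by edgeR), and that of Sdhd without TF replicate 2 or TE replicate 2 (adjusted p = 0.144 and 0.196). Members such as Cox4i1, at 126.5 and 129.1 CPM in TF and 158.8 and 159 CPM in TE (adjusted p = 0.22 by edgeR), did not overlap but did not pass the test. Uqcrh, the hinge protein that joins cytochrome c1 and cytochrome c, was at 64.3 and 80.3 CPM in TF and 43.9 and 51.5 CPM in TE (adjusted p = 0.0872 by edgeR).

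**Figure D2:**
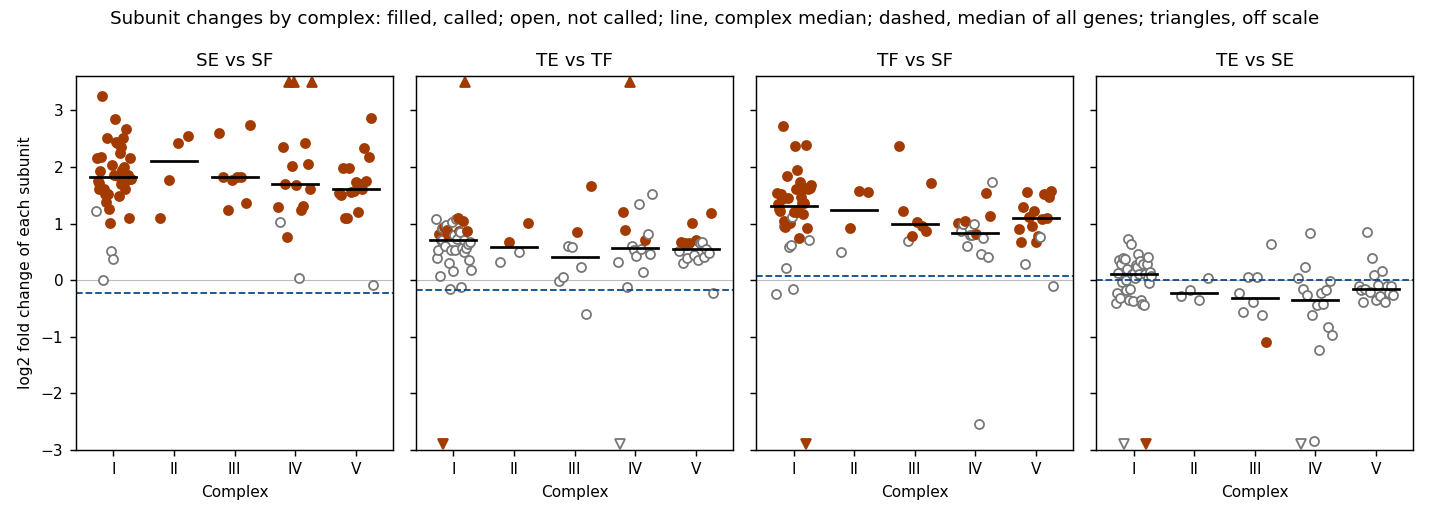
Log2 fold change (vertical axis) of each tested subunit in 4 comparisons, arranged by complex. Filled points are called and open points are not, short black lines are complex medians, the dashed line is the median of all genes tested, and triangles are values off the scale. The complex medians lie between 1.60 and 2.10 in SE versus SF, between 0.41 and 0.70 in TE versus TF, between 0.84 and 1.30 in TF versus SF and between -0.35 and 0.11 in TE versus SE.

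The freshly isolated groups differed by origin. In TF versus SF, 58 of the 83 tested members were called higher and 1 lower, where 15.1% of all genes tested were called higher and 9.13% lower. The median log2 fold change was 1.09 over the tested members and 0.08 over all genes. Over all genes the split of 2655 higher and 1606 lower became 2110 and 1943 with median-ratio size factors. The largest log2 fold change was that of Ndufa4, a subunit counted here under complex I by its symbol and now assigned to complex IV. It was at 4.65 and 1.68 CPM in SF and 19.6 and 22 CPM in TF, a log2 fold change of 2.72 ± 0.46 (adjusted p = 0.003 by edgeR). Uqcrq was at 20.3 and 17.7 CPM in SF and 62.9 and 61.3 CPM in TF (log2 fold change 1.71 ± 0.18, adjusted p = 0.000343 by edgeR), and Cox7b was also among the 4 with the smallest adjusted p (log2 fold change 1.53 ± 0.19, adjusted p = 0.000711). The member called lower, Ndufs5, is described with its copy. Complex IV had 5 of 16 tested members called higher, against 29 of 38 in complex I and 14 of 17 in complex V. Without TF replicate 1 the count was 35.

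After expansion few members passed the test between the origins. In TE versus SE, 0 of the 83 tested members were called higher by edgeR and 2 lower, where 3.15% of all genes tested were called higher and 4.07% lower. At an unadjusted p below 0.05, 3 were higher and 9 lower, and DESeq2 called 2 higher and 3 lower. The median log2 fold change was -0.11, against -0.003 over all genes. TE and SE libraries did not overlap for 46 of the 83, against 50% of all genes. Uqcrh, at 43.9 and 51.5 CPM in TE and 105.1 and 98.2 CPM in SE, was lower by a log2 fold change of -1.09 ± 0.23 (adjusted p = 0.0218 by edgeR). It was -0.97 without TE replicate 1 and -1.21 without TE replicate 2 (adjusted p = 0.204 and 0.0962 by edgeR). Ndufs5 was the other, and its call ended when its copy was added. Most members had a small estimated difference with a sizeable error, as for Cox4i1 (log2 fold change 0.03 ± 0.18), Atp5b (-0.17 ± 0.19) and Ndufv1 (-0.05 ± 0.24, all SE of the fit).

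The effect of expansion differed between the origins for part of the set. The difference in log2 fold change, that of TE versus TF minus that of SE versus SF, was called negative for 37 of the 83 tested members and positive for 0 (0 also at an unadjusted p below 0.05 and by DESeq2). Of all genes tested, 9.62% were called negative and 4.70% positive. The median difference was -1.17 over the tested members and -0.18 over all genes. The members called were 15 of 38 in complex I, 3 of 4 in complex II, 7 of 8 in complex III, 5 of 16 in complex IV and 7 of 17 in complex V. For Ndufs1 the difference was -1.79 ± 0.27 (adjusted p = 0.00278 by edgeR), and for Cox7b it was -1.71 ± 0.27 (adjusted p = 0.00308 by edgeR). For Uqcrh it was -1.97 ± 0.33 (adjusted p = 0.00464 by edgeR), and Uqcrh was higher in SE than SF but not in TE than TF. As a description, 79 of the 83 had the larger log2 fold change in SE versus SF, the exceptions being Cox6a2, Cox7a1, Ndufb2 and Ndufs5. Fewer members were called negative without either TE or either TF library, and so were fewer of all genes tested. The share of members called then came closer to that of all genes.

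Transcript length moved with these differences. The tested members had a median transcript of 809 bases, against 2858 over the 17369 tested genes with a known length. Among other genes with a mean count of at least 50, the median log2 fold change in SE versus SF was 0.79 for the 680 with transcripts under 1 kb, 0.58 for the 2341 of 1 to 2 kb, 0.27 for the 5030 of 2 to 4 kb and -0.08 for the 4337 over 4 kb. The members under 1 kb with such a count, 49 in number, had a median of 1.74, and the 24 of 1 to 2 kb had 1.84. In TF versus SF the same 2 classes of other genes had medians of 0.59 and 0.50, and the members 1.04 and 1.28. A correction for transcript length was also fitted to each library. With it, 49 members were called higher in SE versus SF (median 0.92), against 3019 of 17329 genes tested (median -0.434). In TE versus TF 13 members were (median 0.43), against 1744 genes (median -0.227). In TF versus SF 24 members were (median 0.43), against 2004 genes (median -0.091). In the difference between origins 13 members were called negative (median -0.54), against 1446 genes (median -0.015). The cause of this relation was not tested.

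**Figure D3:**
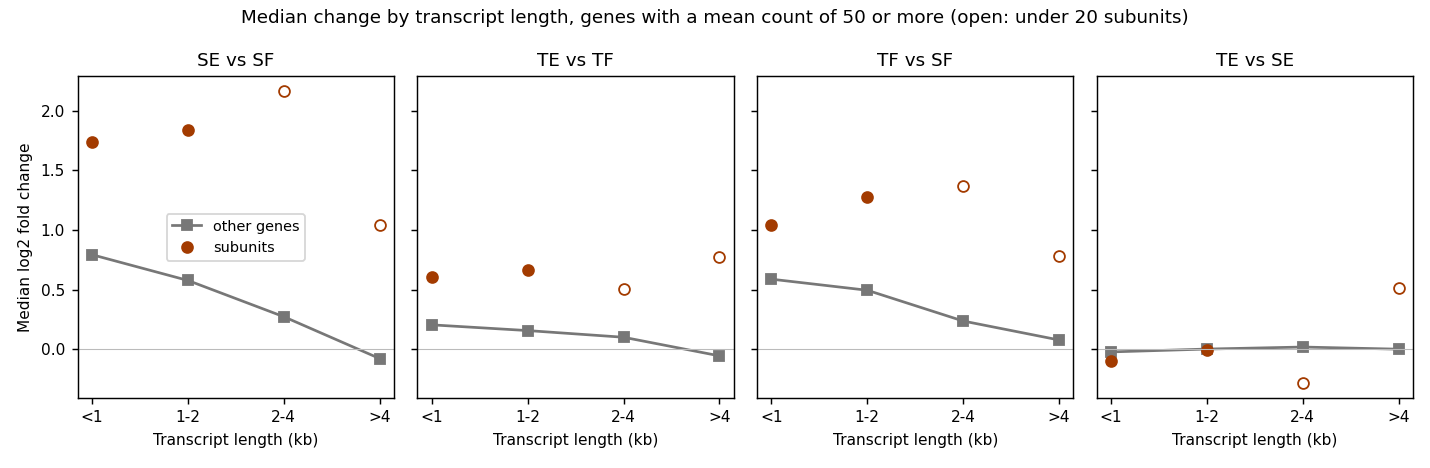
Median log2 fold change (vertical axis) by transcript length class (horizontal axis, in kilobases) for subunits (circles) and other genes (squares joined by lines), in 4 comparisons, over genes with a mean count of at least 50. Open circles mark classes with under 20 subunits. In SE versus SF other genes fall from 0.79 under 1 kb to -0.08 over 4 kb, and subunits under 1 kb lie at 1.74.

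The cells also differed in markers of cell types. Of the marker sums, only that of differentiated muscle followed the order of the subunit levels. The summed level of 17 markers of differentiated muscle was 476.8 and 385 CPM in SF, 1890 and 1002 CPM in TF, 10040 and 10710 CPM in TE, and 10820 and 24970 CPM in SE, where SE replicate 2 stood apart. Myh3 was the largest single part of the sum in the expanded groups. Myh2 was called lower in SE versus SF and Myh4 in TF versus SF, while the other markers called in these comparisons were higher. The 7 markers of myogenic progenitors were present in all libraries at a sum of 1303 to 3335 CPM, but moved in opposite directions. Pax7, Myf5 and Vcam1 were called lower and Cdh15 and Des higher in both TE versus TF and SE versus SF. In the fresh cells, the sum of 5 endothelial markers was 60.6 to 260.8 CPM and that of 5 haematopoietic markers 22.7 to 328.8 CPM, the highest in TF replicate 1. Both lay between 0.311 and 6.58 CPM in the expanded groups, with Kdr, Tie1, Emcn and Ptprc at 0. The 4 fibro-adipogenic markers summed to 17800 and 17900 CPM in TF, nearly all of it Col3a1, against 1657 and 2944 CPM in SF and 594.1 to 923 CPM in the expanded groups. Of 6 brown fat markers, Ucp1, Plin1 and Fabp4 were at 0 in the expanded groups, where the sum was 1.92 to 4.24 CPM, against 5.11 to 95.3 CPM in the fresh groups. In SF most of that sum was Fabp4, at 40.6 and 94.4 CPM, while Ucp1 reached at most 0.872 CPM in any library. Elovl3 did not fall, at 1.93 and 0 CPM in TF, 2.62 and 1.82 CPM in TE, 3.49 and 0.808 CPM in SF, and 4.15 and 2.74 CPM in SE. Of 6 cardiac markers, Nppb and Myl7 were at 0 in the expanded groups. The sum was 116.1 and 129.7 CPM in TE, mostly Myh6, and 0.942 to 13.2 CPM elsewhere. Nkx2-5 was at 24.5 and 16.1 CPM in TE, 1.51 and 2.55 CPM in TF, and 0 in SF and SE. Of 3 cardiac markers tested, Myh6 and Nkx2-5 were called higher both in TE versus TF and in TE versus SE. Of all genes, 9.86% and 3.15% were. The 4 pluripotency markers reached at most 9.89 CPM in sum. The part of such cells in the subunit levels was not tested.

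Of the 3 muscle forms, that of subunit 6a had the largest log2 fold changes after expansion. Cox6a2 (chr7:128205435-128206387, minus strand, GRCm38) was at 2.44 and 0.319 CPM in TF and 50.3 and 45.6 CPM in TE, a log2 fold change of 5.12 ± 1.02 (adjusted p = 0.00532 by edgeR). It was at 1.45 and 0.135 CPM in SF and 11 and 42.9 CPM in SE, a log2 fold change of 5.09 ± 1.04 (adjusted p = 0.00381 by edgeR). Its partner Cox6a1 (chr5:115345642-115348981, minus strand) was at 35.3 and 37.8 CPM in TF and 36.5 and 31 CPM in TE, and rose only from 19.5 and 28.7 CPM in SF to 40.2 and 41.1 CPM in SE (log2 fold change 0.75 ± 0.25, adjusted p = 0.0384 by edgeR). This last call was lost when any library but SF replicate 2 was left out (log2 fold change from 0.50 to 0.79, adjusted p from 0.0553 to 0.185 by edgeR). With the length correction the change was -0.39 (adjusted p = 0.17).

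Counts were also divided by the full length of a single transcript per gene, which allows only an approximate comparison between genes. Per kilobase, Cox6a2 made 5.48% and 0.704% of the Cox6a1 and Cox6a2 pair in TF and 53.6% and 55.3% in TE. It made 5.90% and 0.393% in SF and 18.7% and 46.7% in SE. These shares lie within a library and do not depend on its scaling. The TE libraries lay above both SE libraries, and SE replicate 2, with the higher sum of muscle markers, had the higher share of the 2 SE libraries. With 2 libraries against 2, an exact permutation test cannot go below a two-sided p of 0.333, and none was run on the shares.

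Cox8b (chr7:140898945-140900446, minus strand) was called higher in SE versus SF. It was at 0.581 and 0.942 CPM in SF and 4.53 and 24.4 CPM in SE, a log2 fold change of 4.23 ± 0.93 (adjusted p = 0.00537 by edgeR), again with SE replicate 2 highest. Without that library it was 2.57 (adjusted p = 0.071 by edgeR). In TF it was at 3.70 and 1.44 CPM and in TE at 7.26 and 7.42 CPM (adjusted p = 0.199 by edgeR). Its partner Cox8a (chr19:7215153-7217616, minus strand) rose from 31.6 and 35.5 CPM in SF to 107.4 and 98.3 CPM in SE (log2 fold change 1.62 ± 0.18, adjusted p = 0.000109 by edgeR). With the length correction the change in Cox8a was 0.43 and not called (adjusted p = 0.0709 by edgeR). Per kilobase, Cox8b made 7.21% and 2.85% of the pair in TF, 9.65% and 10.1% in TE, 2.73% and 3.90% in SF, and 6.05% and 27.5% in SE.

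Cox7a1 (chr7:30184144-30186078, plus strand) was called in none of the comparisons. It was at 0.925 and 0 CPM in TF, 0.807 and 1.56 CPM in TE, 3.92 and 1.55 CPM in SF, and 0.519 and 5.09 CPM in SE, and all 4 groups but SF and TF overlapped. Its partner Cox7a2 rose in SE versus SF, from 9.08 and 14.9 CPM to 24.4 and 32.1 CPM (log2 fold change 1.23 ± 0.33, adjusted p = 0.0152 by edgeR), a call lost without SF replicate 1 or SE replicate 2 (adjusted p = 0.0786 and 0.0732). With the length correction the change in Cox7a2 was 0.185 and not called (adjusted p = 0.629 by edgeR). Per kilobase, Cox7a1 made 42.0% and 14.8% of the pair in SF and 3.44% and 21% in SE, and at most 9.06% in the teratoma-derived libraries. Of the 3 muscle forms, Cox7a1 was therefore the only one with no call in any comparison.

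**Figure D4:**
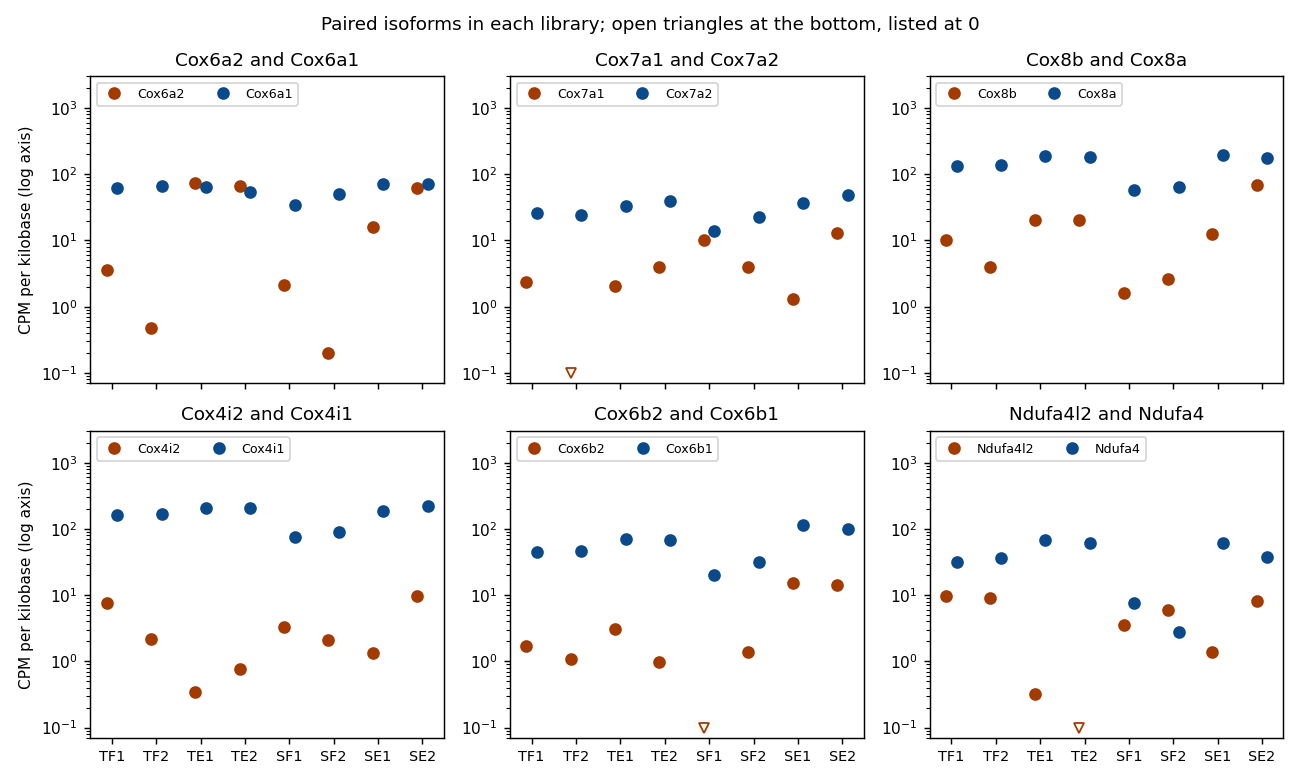
Level in CPM per kilobase of transcript (log axis) of 6 isoform pairs in each of the 8 libraries (horizontal axis). Open triangles at the bottom mark a gene listed at 0. Cox6a2 reaches 74 and 67 CPM per kilobase in TE, above Cox6a1 at 63.9 and 54.3, and lies at or below 3.59 in the fresh libraries.

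Promoter sequences of the Cox6a1 gene and of both Cox8 genes are shown as examples of a broadly expressed and a muscle form. Cox6a2 has no entry, and the windows of Cox7a1 and Cox7a2 are described without their letters. The windows run from 250 bases before to 50 bases after the start of the gene, on its strand, and come from RefSeq (GRCm38.p6), where 68 of the 85 members had an entry. Capitals mark matches to the motifs searched on both strands. Cox6a1 lies at chr5:115348909-115349208, Cox8a at chr19:7217567-7217866 and Cox8b at chr7:140900397-140900696, all on the minus strand.
Cox6a1: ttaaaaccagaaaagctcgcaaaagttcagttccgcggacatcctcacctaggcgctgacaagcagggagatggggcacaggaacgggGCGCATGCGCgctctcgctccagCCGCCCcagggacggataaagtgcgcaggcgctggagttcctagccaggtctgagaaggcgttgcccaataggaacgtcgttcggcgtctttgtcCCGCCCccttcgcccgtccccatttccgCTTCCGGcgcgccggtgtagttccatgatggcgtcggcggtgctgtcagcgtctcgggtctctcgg
Cox8a: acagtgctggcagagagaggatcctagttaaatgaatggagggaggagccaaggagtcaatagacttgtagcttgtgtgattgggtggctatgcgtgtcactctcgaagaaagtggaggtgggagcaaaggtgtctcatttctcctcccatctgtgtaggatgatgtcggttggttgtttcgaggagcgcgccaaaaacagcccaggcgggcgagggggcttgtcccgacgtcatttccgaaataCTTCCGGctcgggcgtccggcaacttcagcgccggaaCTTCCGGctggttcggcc
Cox8b: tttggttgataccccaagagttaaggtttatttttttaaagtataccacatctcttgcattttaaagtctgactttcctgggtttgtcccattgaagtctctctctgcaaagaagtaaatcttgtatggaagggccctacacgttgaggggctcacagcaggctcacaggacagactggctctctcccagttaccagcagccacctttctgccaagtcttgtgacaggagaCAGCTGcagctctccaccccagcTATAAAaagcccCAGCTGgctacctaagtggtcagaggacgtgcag

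The Cox6a1 window held 2 overlapping matches on opposite strands to the core of the nuclear respiratory factor 1 motif (CATGCGC), 2 to the Sp1 motif (GGGCGG) and 1 to the ETS family motif (CCGGAAG). The Cox8a window held 2 matches to the ETS family motif. The Cox8b window held 2 matches to the E-box form CAGCTG and 1 to the TATA box (TATAAA), and none to the other motifs. The pair of subunit 7a did not repeat this contrast, since the Cox7a1 window held no match to any motif searched and the Cox7a2 window 1 match, to the Sp1 motif. Over the 68 members with a window, the nuclear respiratory factor 1 core was in 19.1%, against 3.91% of all 32851 windows. The ETS family motif was in 22.1% against 8.86%, the half-site of the oestrogen-related receptors (AAGGTCA) in 11.8% against 4.72%, and the YY1 motif (AAGATGG) in 14.7% against 6.34%. The E-box form was in 8.82% against 16.3%, the TATA box in 10.3% against 13.6%, the Sp1 motif in 41.2% against 35.7%, and the MEF2 motif in 0 members against 3.19%. These are matches of letters in a window.

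Of the other isoform pairs, Cox6b2 rose in satellite cells. It was at 0 and 0.808 CPM in SF and 8.82 and 8.40 CPM in SE, a log2 fold change of 4.38 ± 1.44 (adjusted p = 0.0354 by edgeR). The call was lost without SF replicate 1, SE replicate 1 or SE replicate 2 (adjusted p from 0.065 to 0.0835). With the length correction the change was 3.375 and not called (adjusted p = 0.0782 by edgeR). Cox6b2 was at 1.01 and 0.638 CPM in TF and 1.82 and 0.571 CPM in TE. Cox4i2, the form known for its response to low oxygen, was at 5.63 and 1.60 CPM in TF and 0.252 and 0.571 CPM in TE (adjusted p = 0.101 by edgeR), and at 0.99 and 7.03 CPM in SE. Ndufa4l2, another gene known to be induced by low oxygen, was the member called lower in TE versus TF. It was at 8.91 and 8.38 CPM in TF and 0.303 and 0 CPM in TE, a log2 fold change of -5.76 ± 1.35 (adjusted p = 0.0121 by edgeR). In SF it was at 3.27 and 5.59 CPM and in SE at 1.27 and 7.60 CPM, groups that overlapped, and the difference between origins was -5.76 ± 1.67 (adjusted p = 0.0481 by edgeR). The call of this difference was lost without any 1 of 6 libraries, all but TE replicate 1 and SE replicate 1 (from -6.21 to -3.97, adjusted p from 0.0598 to 0.12).

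Its paralog Ndufa4 rose in SE versus SF, from 4.65 and 1.68 CPM to 37.3 and 23 CPM (log2 fold change 3.26 ± 0.47, adjusted p = 0.000498 by edgeR). Per kilobase, Ndufa4l2 made 22.9% and 19.9% of the Ndufa4 pair in TF, 0.470% and 0% in TE, 31.5% and 68.4% in SF, and 2.18% and 17.7% in SE. Among the 3 genes that encode the same c-subunit of complex V, Atp5g1 was called higher in TE versus TF, from 19.5 and 21.9 CPM to 40.8 and 42.3 CPM (log2 fold change 1.0 ± 0.26, adjusted p = 0.0196 by edgeR). Atp5g3 was also called higher there (0.71 ± 0.19, adjusted p = 0.0212), while Atp5g2, at 31.3 and 25.1 CPM in TF and 41.4 and 35.4 CPM in TE, was not (adjusted p = 0.245). Both calls were lost when any 1 of the 4 libraries compared was left out (adjusted p from 0.0646 to 0.127 for Atp5g1 and from 0.112 to 0.139 for Atp5g3).

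The values of Ndufs5 depended on a near-identical copy. Ndufs5 (chr4:123712710-123718202, minus strand, GRCm38) encodes an accessory subunit of complex I, and BC002163 (chr16:42955631-42955949, plus strand) is annotated as a processed pseudogene. Over the 319 bases compared with the coding sequence of Ndufs5, the copy differs at 2. Counted from 1 at the A of the start codon, with the Ndufs5 base first, these are T81C and A105G. The stretch from base 52 to base 134 is shown because it holds both, in capitals.
Ndufs5: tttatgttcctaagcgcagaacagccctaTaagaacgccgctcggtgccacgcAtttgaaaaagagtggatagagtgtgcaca
BC002163: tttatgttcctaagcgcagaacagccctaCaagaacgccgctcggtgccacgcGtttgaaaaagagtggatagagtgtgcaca

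The estimated counts of the pair were assigned almost wholly to 1 gene or the other, by origin. Ndufs5 had estimated counts of 0 and 1.29 in TF and 23.6 and 2.82 in TE, against 223 and 248 in SF and 934 and 997 in SE. BC002163 had 411 and 490 in TF and 1551 and 1752 in TE, against 0 and 0 in SF and 18.1 and 0 in SE. Ndufs5 thus took at most 1.5% of the pair in the teratoma-derived libraries and at least 98.1% in the satellite libraries. Taken alone, Ndufs5 was called lower in TF versus SF and in TE versus SE. The ratio of TF to SF, from 1 rounded count against 471, was 0.00249 (95% counting interval 6.28e-05 to 0.0139).

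Summed, the pair was at 34.6 and 39.2 CPM in TF, 79.4 and 91.1 CPM in TE, 16.2 and 16.7 CPM in SF, and 44.9 and 57 CPM in SE. The sum was higher in TF than SF (log2 fold change 1.16 ± 0.22, adjusted p = 0.00489 by edgeR), opposite to Ndufs5 alone. In TE versus SE the sum was not called (0.74 ± 0.21, adjusted p = 0.0685 by edgeR). It was called higher in TE versus TF (1.21 ± 0.21, adjusted p = 0.00283) and in SE versus SF (1.63 ± 0.22, adjusted p = 0.000338, both by edgeR). Whether the reads carry the base of the gene or of the copy at these positions was not tested, as estimated counts hold no bases. The 2 differing bases are those within the 319 bases compared. The Ndufs5 transcript has 680 bases, and reads on its other bases were not examined. The values given here do not show which of the 2 genes was transcribed.

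**Figure D5:**
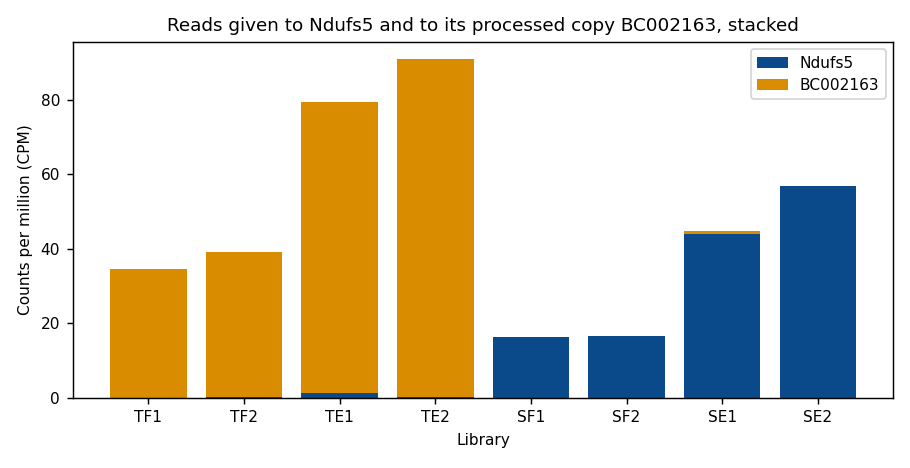
Level in CPM given to Ndufs5 and to its processed copy BC002163, stacked, in each of the 8 libraries. Teratoma-derived libraries show nearly all of the pair in BC002163 and satellite libraries nearly all in Ndufs5, with sums from 16.2 to 91.1 CPM.

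Other members shared sequence in the same way. Ndufb4 and the processed pseudogene Ndufb4c, identical over 390 bases, were at 9.11 and 10.5 CPM and at 27.6 and 27 CPM in TF, so that the larger part went to the pseudogene. Their sum was 13.2 and 32.4 CPM in SF and 52.1 and 62.7 CPM in SE, and it was called higher (log2 fold change 1.33 ± 0.36, adjusted p = 0.015 by edgeR), whereas Ndufb4 alone was not. Cox7c, with 2 near-identical pseudogenes, summed to 26 and 25.9 CPM in TF and 48.2 and 45.5 CPM in TE, and that sum was called higher (0.85 ± 0.24, adjusted p = 0.0273 by edgeR), whereas Cox7c alone was not (adjusted p = 0.107).

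Other genes of the pathway were read from lists. Of 18 genes of the tricarboxylic acid cycle and pyruvate dehydrogenase, which supply the electrons, 17 were called higher in SE versus SF. There 0 were called lower (0 also at an unadjusted p below 0.05 and by DESeq2), and the median log2 fold change was 1.44. Of all genes tested, 20.9% were called higher and 19.8% lower. In TE versus TF 10 were called higher and 2 lower, where 9.86% and 16.2% of all genes tested were, and in TF versus SF 12 were called higher (8 by DESeq2), where 15.1% of all genes were. The 2 lower calls in TE versus TF, Ogdh and Idh2, were both lost when any 1 of the 4 libraries compared was left out. The mitochondrial isocitrate dehydrogenase Idh2 was lower in TE versus TF, at 129.7 and 136.3 CPM against 82.7 and 98.9 CPM (log2 fold change -0.55 ± 0.18, adjusted p = 0.0447 by edgeR), and rose in SE versus SF, from 35.8 and 39.2 CPM to 168.2 and 172.9 CPM (2.18 ± 0.18, adjusted p = 2.38e-05 by edgeR). Its difference between origins was -2.74 ± 0.25 (adjusted p = 0.000259 by edgeR). Idh2 was also called lower in TE versus SE (-0.91 ± 0.18, adjusted p = 0.0141 by edgeR), where 4.07% of all genes tested were.

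Of 52 assembly factors, which build the complexes without staying in them, 25 were called higher and 2 lower in SE versus SF, where 20.9% and 19.8% of all genes tested were, and 13 higher in TE versus TF, where 9.86% were. In TF versus SF 11 were called higher and 2 lower, against 15.1% and 9.13% of all genes. Over all pathway lists, the 24 called higher in TF versus SF fell to 7 with only the 2 groups compared, to 9 without TF replicate 1 or TF replicate 2, to 12 without SF replicate 1 and to 14 without TE replicate 1 or TE replicate 2. In TE versus SE 0 assembly factors were called (4 higher and 1 lower at an unadjusted p below 0.05, and 0 and 1 by DESeq2). The complex IV copper chaperone Cox17 rose in SE versus SF (log2 fold change 2.28 ± 0.25, adjusted p = 0.000112 by edgeR). Lrpprc, which stabilises mitochondrial messenger RNA, rose in TE versus TF from 39.3 and 44.2 CPM to 116.3 and 133.9 CPM (1.58 ± 0.22, adjusted p = 0.000623 by edgeR). Of 7 tested electron carriers, 6 were called higher in SE versus SF, where 20.9% of all genes tested were. In TE versus TF 2 were, Cycs and Cyc1 for cytochromes c and c1, where 9.86% of all genes were. Cyc1 belongs to complex III, but its symbol lies outside the families by which members were taken. The 13 mitochondrially encoded subunits were not analysed here.

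Of 18 tested regulators of mitochondrial biogenesis, 6 were called higher and 5 lower in SE versus SF, where 20.9% and 19.8% of all genes tested were, so calls went both ways as they did over all genes. In TE versus TF 5 were called higher, where 9.86% of all genes were. Ppargc1b, a coactivator of mitochondrial genes, rose in TE versus TF from 12.9 and 26.3 CPM to 65.6 and 58.4 CPM (log2 fold change 1.66 ± 0.34, adjusted p = 0.00599 by edgeR) and in SE versus SF from 20.5 and 14 CPM to 75.8 and 92.2 CPM (2.28 ± 0.34, adjusted p = 0.000681 by edgeR). Esrra, an oestrogen-related receptor that acts with it, rose in SE versus SF (2.34 ± 0.44, adjusted p = 0.00226 by edgeR). Pprc1, a related coactivator, was at 171.5 and 285.6 CPM in SF and 80.2 and 84.2 CPM in SE (-1.48 ± 0.24, adjusted p = 0.00104 by edgeR). In TF versus SF, 5 regulators were called lower, among them Pprc1 and the mitochondrial DNA polymerase Polg, where 9.13% of all genes were. There 0 were called higher by edgeR or DESeq2 (1 at an unadjusted p below 0.05), where 15.1% of all genes were by edgeR.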

How the data were processed

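RNA was measured in 8 libraries made from total RNA with the SMARTer Stranded v2 kit for pico inputs. Estimated counts per gene symbol, left unscaled, were what the authors deposited. Their processing notes list CASAVA, kallisto 0.44.0 and GRCm38 (mm10), and the annotation is not given in the sources used here. kallisto shares reads between similar transcripts, so near-identical copies can exchange counts. Between 74.4% and 84.4% of a library's values were whole (within 1e-06).

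Counts were rounded, filtered with filterByExpr, scaled by TMM and tested with edgeR 4.0.16 (R 4.3.3), quasi-likelihood, in 1 fit over the 4 groups. DESeq2 1.42.0 was an alternative. The fit was tested on simulated data. The members and gene lists were chosen with earlier results of these data known. Genes named are isoform families, complex cores and the up to 4 members per comparison and direction (2 for pathway lists) with the smallest adjusted p. Other members and genes were named after their values were seen. Transcript lengths came from GENCODE M21 (24569 of 24980 symbols). Replicate numbers were not used to pair samples across groups (correlations of deviations -0.023 to 0.026). The labels do not say whether same-numbered samples came from the same isolation, and these correlations cannot show it. Replicates differed beyond counting noise (chi-square per degree of freedom 12.1 to 93). A count of 0 allows up to 3 counts, 0.141 to 0.252 CPM per library, counting error only. P-values measure the spread between these libraries.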

Additional observations from a re-analysis of the deposited data

Results flagged for a closer look

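The effect of expansion differed between teratoma-derived and satellite cells, by the interaction term of the edgeR fit, for 37 subunits, where 9.62% of all genes tested were called negative. With each library left out in turn, between 10 and 51 were called. For the genes named by rule, the log2 fold change of TE versus TF minus that of SE versus SF was as follows. In complex I it was -1.79 for Ndufs1, -2.33 for Ndufa4 and -5.76 for Ndufa4l2. In complex II it was -1.10 for Sdhb, -1.91 for Sdhc and -1.53 for Sdhd. In complex III it was -1.18 for Uqcrc1, -1.58 for Uqcrfs1 and -1.97 for Uqcrh. In complex IV it was -0.98 for Cox4i1, -1.41 for Cox6b1, -1.71 for Cox7b and -1.15 for Cox8a. In complex V it was -1.02 for Atp5a1, -1.68 for Atp5c1 and -1.02 for Atp5g3. Leaving out 1 library ended the call for some of these. It did so for each of 6 libraries for Cox4i1, Cox6b1, Sdhb, Atp5g3 and Ndufa4l2, 5 for Atp5a1 and Uqcrc1, 4 for Cox8a and Sdhd, 3 for Ndufa4 and 1 for Uqcrfs1. The adjusted p without the library lay between 0.0513 (Sdhd) and 0.198 (Atp5a1) by edgeR. With the transcript length correction 13 subunits were called negative, against 1446 of 17329 genes tested.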

How the results depend on the processing

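With 2 libraries per group, counts of calls moved with the samples fitted more than the medians did. Corrections for transcript length and GC content and the summing of near-identical copies were chosen after seeing the data. With the length correction 13 subunits were called higher and 2 lower in TE versus TF (median 0.427), and 49 higher in SE versus SF (median 0.92). There were 24 higher in TF versus SF (median 0.433) and 13 lower in the difference between origins (median -0.538). Of all 17329 genes, this fit called 1744 higher and 2919 lower in TE versus TF, and 3019 higher in SE versus SF. It called 2004 higher in TF versus SF and 1446 lower in the difference. With the GC correction the medians were 1.564 in SE versus SF, 0.89 in TF versus SF and -0.96 in the difference. With only the 2 groups compared, 42 were higher and 2 lower in TE versus TF, against 2667 and 3844 of 15188 genes. In TF versus SF 37 were higher, against 1781 of 16557 genes. Testing against the fold threshold left 13 higher in TE versus TF, against 1308 of 17582 genes. DESeq2 called 2 lower in TE versus TF and 2 higher in TE versus SE, with a median of 1.57 in SE versus SF. Median-ratio size factors gave a median of 1.577 there, and moved the median of all genes from -0.234 to -0.428 in SE versus SF and from 0.08 to -0.079 in TF versus SF. With copies summed, 0 were lower in TF versus SF and 1 in TE versus SE, and Ndufs5 turned to 1.164 in TF versus SF and 0.743 in TE versus SE because the counts of its copy were added. With the length correction Cox6a1 turned to -0.387 in SE versus SF and Atp5g3 to -0.083 in TF versus SF, and the cause was not tested. Of 1361 alternative values of named subunits, 1161 kept direction and call, 196 kept direction and lost the call, and 4 reversed.

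Of the pathway list genes, 1 was lower in TE versus TF without the low-count filter and with the replicate block, and 0 against the fold threshold. In TF versus SF 14 were higher with median-ratio size factors and against the threshold, 7 with only the 2 groups, 8 with the length and 13 with the GC correction. In TE versus SE 3 were lower without the filter, by DESeq2 and with only the 2 groups, and 2 with the length or the GC correction. In the difference 7 were higher by DESeq2 and 7 lower with the length correction.

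With each replicate left out in turn, the subunits called higher and lower numbered 5 to 38 and 1 to 2 in TE versus TF, 70 to 76 and 0 to 0 in SE versus SF, 35 to 63 and 1 to 1 in TF versus SF, 0 to 2 and 1 to 3 in TE versus SE, and 0 to 0 and 10 to 51 in the difference. Medians ran from 0.59 to 0.667, 1.628 to 2.013, 1.029 to 1.309, -0.165 to -0.013 and -1.396 to -0.959 in the same order. The pathway list genes numbered 13 to 35 and 0 to 3, 46 to 54 and 5 to 6, 9 to 26 and 4 to 8, 0 to 0 and 0 to 2, and 1 to 4 and 3 to 16. The share of Cox6a2 ran from 0.704% to 5.48% in TF, 53.6% to 55.3% in TE, 0.393% to 5.9% in SF and 18.7% to 46.7% in SE. That of Cox7a1 ran from 0% to 8.29%, 5.76% to 9.06%, 14.8% to 42% and 3.44% to 21%, and that of Cox8b from 2.85% to 7.21%, 9.65% to 10.1%, 2.73% to 3.9% and 6.05% to 27.5%.

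A replicate block gave 20 higher and 1 lower in TE versus TF, 76 and 0 in SE versus SF, 60 and 1 in TF versus SF, 0 and 2 in TE versus SE, and 0 and 34 in the difference. Deviations of same-numbered samples had correlations from -0.023 to 0.026, which cannot show whether the samples came from the same isolation. At the depth of these libraries a subunit at 0 may still have up to 0.252 CPM.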
